A study of Rattus norvegicus with 18 samples.

Results

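The genes described are those of antigen presentation, interferon response, cytokine reception and JAK-STAT and NF-kappaB signalling. They were compared between O4+ and A2B5+ cells sorted from rat brain. The rule that picks members uses gene symbols and no measured value, over probe sets annotated with a single symbol: the RT1 genes (the rat major histocompatibility complex, MHC), B2m, Tap1, Tap2, Mx1, Mx2, and all symbols that begin with Ifi, Ifnar, Ifngr, Irf1 to Irf9, Il followed by a number and r, Tnfrsf, Jak, Stat or Socs followed by a number, or Nfkb, with Il6st, Lifr and Cntfr. The rule found 115 of the 13810 genes with such a probe set. Of these, 96 were tested, among 11982 genes in all. The other 19 had no probe set with a ratio of at least 1 on 4 or more of 9 arrays and are given no difference: Ifih1, Ifit3, Il13ra2, Il17rc, Il17re, Il1r1, Il1r2, Il1rl2, Il20rb, Il22ra2, Il27ra, Il2ra, Il5ra, Lifr, RT1-N2, Socs2, Socs3, Tnfrsf17 and Tnfrsf4.

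The cells came from dissociated whole brains of male rats at postnatal day 7, and a litter of 10 pups was pooled for each replicate. Cells were sorted by flow cytometry for A2B5, an antibody against gangliosides of glial progenitors and of some neurons, or for O4, an antibody against sulfatide and related lipids of late progenitors and oligodendrocytes. There were 5 A2B5+ and 4 O4+ replicates, and biotin-labelled total RNA of each was measured on a pair of array types (A and B). No animal was treated, no genotype or strain is given in the sources used here, and whether A2B5+ and O4+ replicates shared litters is not stated. The question was which of these transcripts differ between the populations. All values are log2 of the deposited ratios. These are relative to a divisor of each probe set, so that a value of 0 is a ratio of 1, and levels of different genes cannot be compared. Differences are O4+ minus A2B5+ with the standard error (SE) of a limma fit over all tested genes, and a gene was called at a Benjamini-Hochberg adjusted p under 0.05.

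MHC class I molecules display peptides from inside the cell. Their heavy chain pairs with beta-2-microglobulin (B2m), and the Tap1-Tap2 transporter carries the peptides into the endoplasmic reticulum. Class II molecules display peptides from endocytosed proteins and are typical of microglia, macrophages and B cells among the cells of the brain and blood. Interferons and many interleukins signal through paired receptor chains, Janus kinases and STAT factors. The STAT and IRF factors bind elements in promoters of target genes, SOCS proteins limit the signal, and TNF receptors act mainly through NF-kappaB, which IkappaB proteins hold back.

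Promoters of 7 genes are shown because they are the stretches on which these factors are known to act and because together they show genes called lower, a gene called higher and a gene not called. Each is the 250 bases before the RefSeq start of build GRCr8, written 5′ to 3′ on the gene's strand, and was searched on both strands. Capitals mark a match to the core of the interferon-stimulated response element (GAAANNGAAA), to the gamma-activated sequence bound by STAT dimers (TTCNNNGAA), or to the kappa-B motif. The motifs were allowed to overlap. B2m (chr3:129549080-129549329 on the plus strand), Tap1 (chr20:4668544-4668793 on the minus strand), Tap2 (chr20:4652297-4652546 on the minus strand), Ifi44 (chr2:243303841-243304090 on the minus strand) and Irf9 (chr15:33065586-33065835 on the plus strand) were lower in O4+ cells. Socs1 (chr10:5389324-5389573 on the plus strand) was higher before the arrays were centred, and RT1-A2 (chr20:4872621-4872870 on the plus strand), a class I heavy chain gene, did not pass the test.
B2m: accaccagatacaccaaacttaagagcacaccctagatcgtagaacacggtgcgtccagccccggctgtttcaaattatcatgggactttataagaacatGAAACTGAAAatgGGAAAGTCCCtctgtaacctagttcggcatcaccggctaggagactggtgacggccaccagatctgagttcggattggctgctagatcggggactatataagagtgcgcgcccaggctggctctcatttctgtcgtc
Tap1: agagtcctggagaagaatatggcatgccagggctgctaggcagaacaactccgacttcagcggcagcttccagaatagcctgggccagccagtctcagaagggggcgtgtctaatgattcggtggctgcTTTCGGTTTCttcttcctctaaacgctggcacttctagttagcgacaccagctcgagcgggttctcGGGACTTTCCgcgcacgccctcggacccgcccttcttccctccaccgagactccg
Tap2: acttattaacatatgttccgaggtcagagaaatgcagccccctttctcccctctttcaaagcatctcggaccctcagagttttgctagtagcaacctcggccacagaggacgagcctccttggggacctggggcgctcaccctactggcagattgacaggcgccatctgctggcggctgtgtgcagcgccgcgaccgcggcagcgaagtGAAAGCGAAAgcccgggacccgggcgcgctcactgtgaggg
Ifi44: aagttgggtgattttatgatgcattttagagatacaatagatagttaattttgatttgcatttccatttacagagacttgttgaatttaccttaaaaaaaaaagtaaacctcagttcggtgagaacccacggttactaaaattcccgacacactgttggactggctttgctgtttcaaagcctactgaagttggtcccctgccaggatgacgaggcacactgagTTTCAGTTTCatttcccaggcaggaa
Irf9: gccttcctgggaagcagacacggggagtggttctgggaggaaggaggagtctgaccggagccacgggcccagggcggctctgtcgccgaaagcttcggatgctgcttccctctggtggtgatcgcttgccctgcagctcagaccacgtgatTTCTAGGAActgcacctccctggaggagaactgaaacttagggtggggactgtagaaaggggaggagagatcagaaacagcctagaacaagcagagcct
Socs1: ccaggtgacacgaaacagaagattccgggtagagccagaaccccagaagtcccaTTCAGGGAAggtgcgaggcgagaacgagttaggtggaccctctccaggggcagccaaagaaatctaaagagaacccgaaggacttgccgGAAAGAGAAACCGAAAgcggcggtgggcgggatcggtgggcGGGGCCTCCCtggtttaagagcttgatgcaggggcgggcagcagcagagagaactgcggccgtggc
RT1-A2: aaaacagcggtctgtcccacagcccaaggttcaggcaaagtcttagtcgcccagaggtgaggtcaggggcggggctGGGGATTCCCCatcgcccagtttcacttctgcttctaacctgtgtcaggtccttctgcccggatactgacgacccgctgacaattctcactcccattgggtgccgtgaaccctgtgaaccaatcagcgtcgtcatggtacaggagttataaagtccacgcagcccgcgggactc

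In these promoters, the response element core lay 150 bases before the start in B2m, 121 in Tap1, 41 in Tap2 and 26 in Ifi44, counted to its first base. Socs1 held the core at 107 and 101 bases. Irf9 held no such core but a gamma-activated sequence 99 bases before its start. RT1-A2 held neither of these and matched the kappa-B motif in an overlapping pair at 174 and 173 bases. RefSeq promoters were found for 75 of the 96 tested genes. The response element core was in 15 of these 75, against 3.41% of 33469 promoters of the same length. It was in 8 of 31 genes called lower, 5 of 35 not called and 2 of 9 called higher. The gamma-activated sequence was in 10 of 75, against 7.67% of all promoters, and in 5 of 31, 4 of 35 and 1 of 9 of the same classes. The kappa-B motif was in 20 of 75, against 6.33%, and in 7 of 31, 9 of 35 and 4 of 9. A gene was counted if any of its promoters matched, and some genes, such as Il1rap, have several. The shares over all promoters are per promoter, so the units differ. These matches describe letters in a window and say nothing of binding.

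O4+ cells had lower ratios for a large share of these genes. Of the 96 tested, 39 (40.6%) were called lower in O4+ cells and 11 (11.5%) higher. Over all 11982 genes the shares were 17.8% lower and 28.8% higher. The median difference was -0.454 over the 96 genes, with a range from -2.87 to 2.54, against 0.141 over all genes. When each array was centred on the median of its genes, 45 (46.9%) were lower and 3 (3.12%) higher, against 20.4% and 18.7% of all genes. All 39 lower calls were kept by centring, and 3 of the 11 higher ones. The populations did not overlap for 33 of the 96 (34.4%), against 41.1% of all genes. For 19 genes every ratio of at least 1 was in A2B5+ arrays. The filter was passed through that population alone, so their direction, lower in O4+, was set by the filter, and neither their tests nor their lack of overlap is read as support. They are Ifi44, Ifitm3, Ifitm10, Ifngr1, Il2rg, Il6r, Il7r, Il10ra, Il10rb, Nfkb1, Nfkbid, RT1-DMa, RT1-DMb, RT1-M3-1, RT1-S3, Tnfrsf1a, Tnfrsf11b, Tnfrsf25 and Tnfrsf26. Over the other 77 genes, which had a ratio of at least 1 in both populations, 20 (26%) were lower and 11 (14.3%) higher, with a median of -0.173. Over all 10485 genes of that kind, 7.04% were lower and 32.3% higher, with a median of 0.221. This split mainly takes out genes separated downward. Those separated upward stay in, such as Il1rap and Nfkbib, with 1 A2B5+ and 4 O4+ ratios of at least 1. Of all genes, 1424 were passed through A2B5+ arrays alone, 97.5% of them lower, and 73 through O4+ arrays alone. Both pairs of shares depend on that choice and are not read as support.

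**Figure D1:**
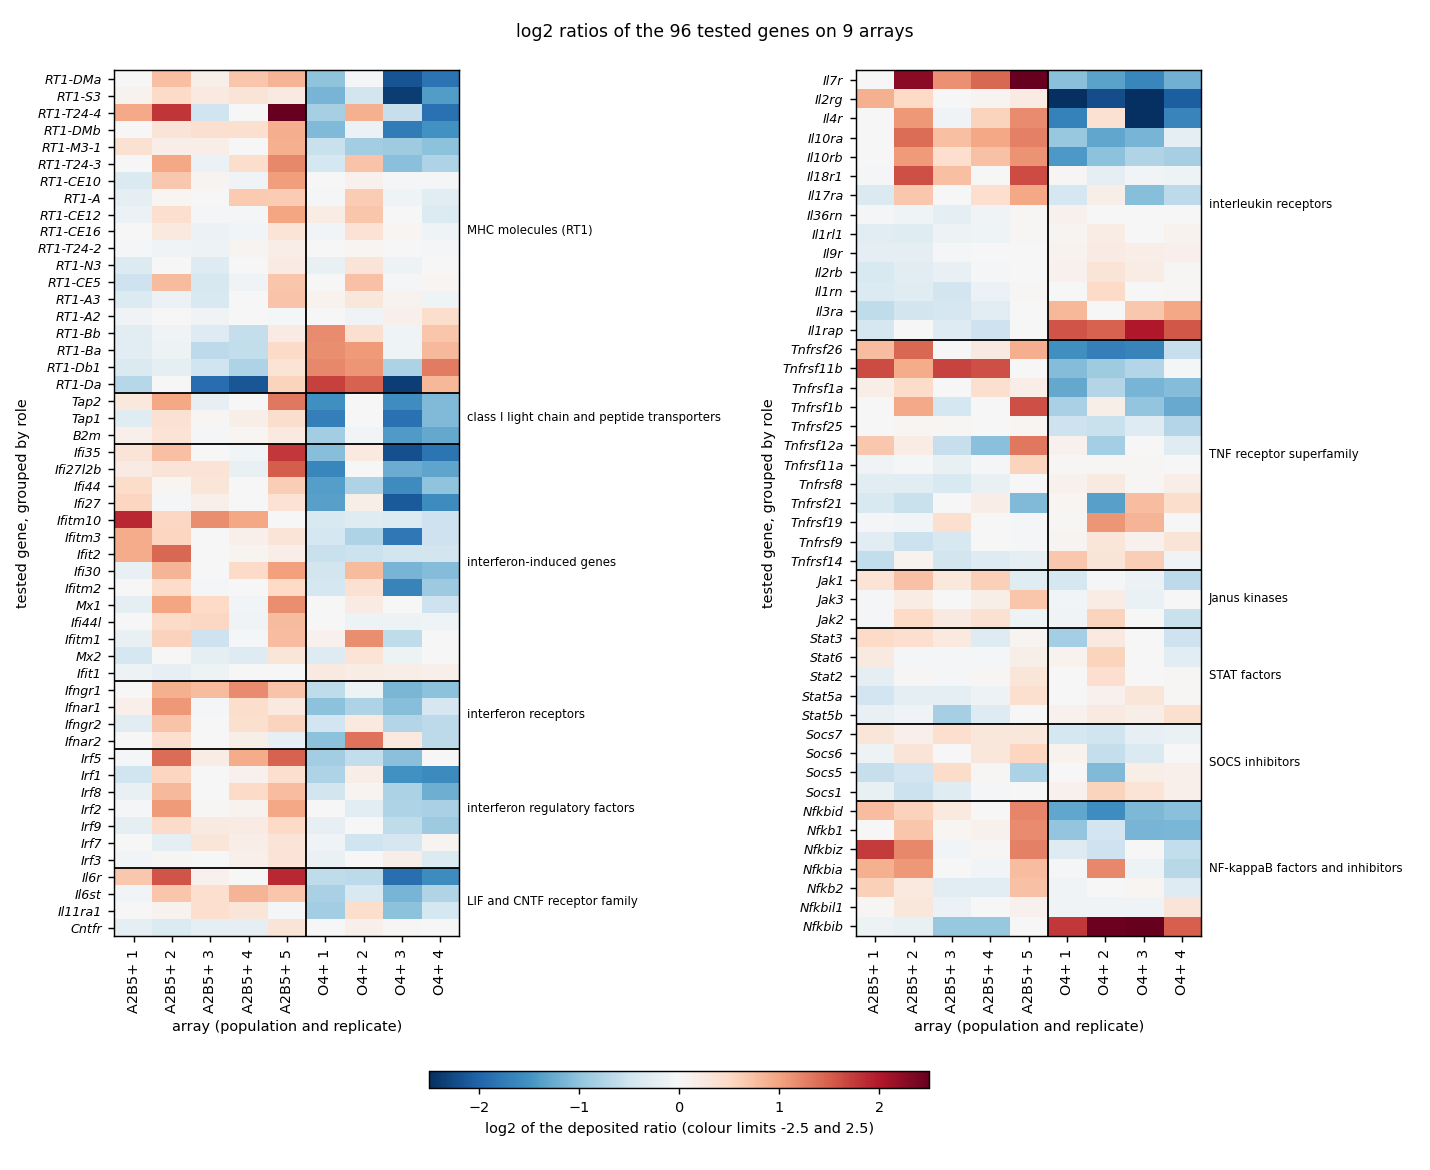
log2 ratios of the 96 tested genes (rows, grouped by role and ordered by difference) on the 5 A2B5+ and 4 O4+ replicates (columns, label numbers of both array types set side by side). Blue is a ratio under 1 and red over 1, with colour limits at -2.5 and 2.5. The bottom 4 rows of the RT1 block (outside O4+ replicate 3) and Nfkbib, Il1rap and Il3ra (outside O4+ replicate 2) are red in O4+, while Il7r, Il2rg and most of the interferon receptor, Irf and Nfkb rows are blue there.

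**Figure D2:**
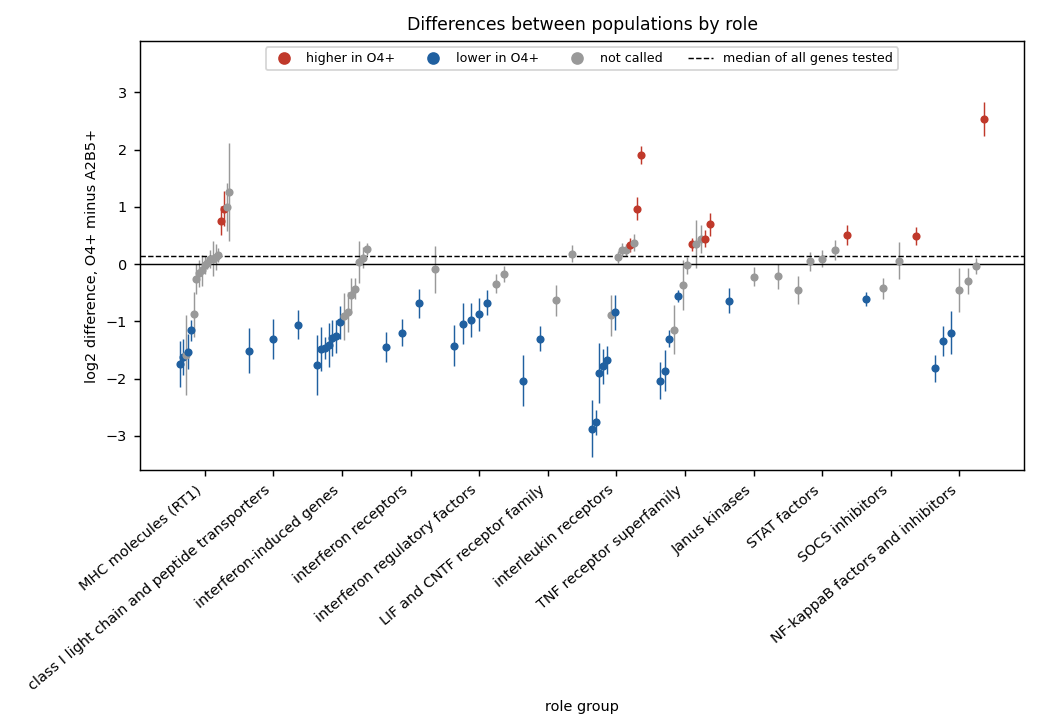
Difference O4+ minus A2B5+ (log2, point) with its SE (bar) for each tested gene, by role group. Blue points are the 39 genes called lower, red points the 11 called higher and grey points the 46 not called. The dashed line at 0.141 is the median of all genes.

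As a check of the labels, 14 of 14 tested myelin markers were higher in O4+ cells. Markers of other cell types also moved with the contrast, and the group differences below stand beside them. Of the tested markers, 17 of 22 of microglia and macrophages, 15 of 23 of endothelial and mural cells, 10 of 15 of astrocytes and radial glia, 10 of 16 of neurons and 8 of 12 of mast cells and lymphocytes were lower in O4+ cells. In the neuronal list 3 were higher. The 8 tested markers of oligodendrocyte progenitors were split, with 4 higher and 4 lower. Among 11 meningeal and fibroblast markers, 3 were lower and 8 not called. Several lower markers, among them Tie1, Tek, Kdr, Vwf, Pecam1, Nes and Mlc1, had no O4+ ratio of at least 1, so the filter set their direction. Such markers were not set apart in these counts, and the counts of lower markers are not read as support. The microglial mean on array A (18 genes) was between 0.00974 and 0.717 in A2B5+ replicates and -0.632, 0.12, -1.21 and -1.2 in O4+ replicates 1 to 4. The endothelial mean (20 genes) was between 0.109 and 0.476 in A2B5+ and between -1.67 and -0.536 in O4+. The mast cell and lymphocyte mean (11 genes) was between -0.0685 and 1.68 in A2B5+ and between -1.34 and -0.787 in O4+. The ratios hold no zero level, so that absence of such cells cannot be read from them. In bulk RNA, fewer cells of a type and less RNA per cell cannot be told apart. The part of these cell types in the differences below was not tested.

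**Figure D3:**
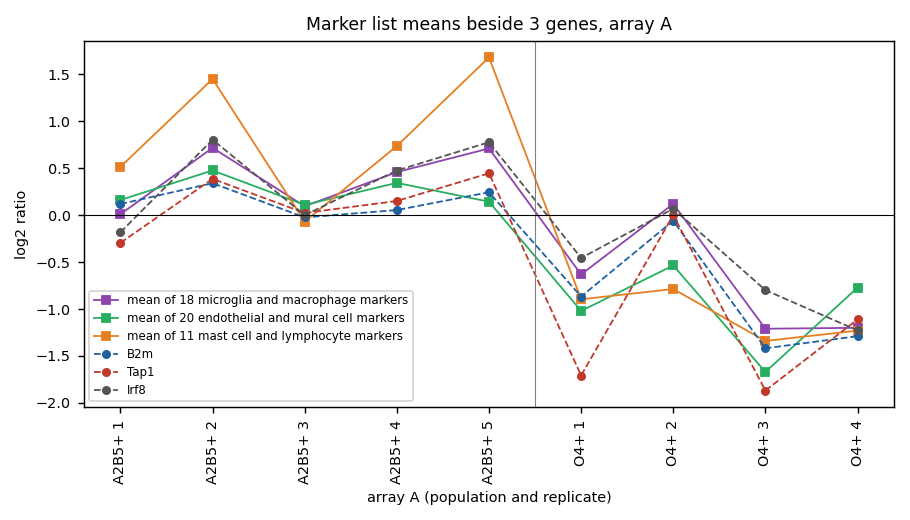
Mean log2 ratio of 3 marker lists (squares) and the log2 ratios of B2m, Tap1 and Irf8 (circles) on the 9 array A samples. O4+ replicate 2 has the highest microglial mean of the O4+ arrays, 0.12, and the highest values of all 3 genes among them.

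The light chain and the peptide transporter of class I were lower in O4+ cells, all 3 of 3. B2m, the light chain, had log2 ratios of 0.12, 0.34, -0.024, 0.054 and 0.24 in A2B5+ replicates and -0.87, -0.06, -1.42 and -1.29 in O4+ replicates. It was 2.08-fold lower, a difference of -1.05 ± 0.25 (SE, adjusted p = 0.0076). O4+ replicate 2 stood within 0.05 of the lowest A2B5+ value, and the other O4+ replicates were far below it. Tap1, the first subunit of the transporter, had -0.30, 0.39, 0.023, 0.15 and 0.45 in A2B5+ replicates and -1.71, 0.00, -1.87 and -1.11 in O4+ replicates, a difference of -1.31 ± 0.35 (SE, adjusted p = 0.013). Tap2, its partner, had 0.26, 0.96, -0.21, 0.011 and 1.32 in A2B5+ replicates and -1.53, 0.00, -1.55 and -1.10 in O4+ replicates, a difference of -1.51 ± 0.40 (SE, adjusted p = 0.012). For both subunits O4+ replicate 2 lay within the A2B5+ range and the other 3 O4+ replicates lay below it. Both probe sets of B2m were called lower, at -0.81 and -1.30, but the latter passed the filter through A2B5+ arrays alone. With no filter on low probe sets Tap1 was at -0.52 (adjusted p = 0.056) and lost its call.

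Most class I heavy chain genes were not called. Some of the class I RT1 genes are near-identical copies, so that which of them a probe set measures is uncertain. Of 13 tested RT1 genes of class I and class I-like proteins, 2 were lower and 11 not called, the latter between -1.58 and 0.16. Without O4+ replicate 2, RT1-T24-3 (-1.24) and RT1-T24-4 were called lower as well, the latter also without A2B5+ replicate 3 (between -2.08 and -1.95, with adjusted p-values of 0.037 and 0.044). The 2 lower genes, RT1-M3-1 and RT1-S3, are both among the 19 whose direction the filter set. Over the 19 RT1 genes of both classes the median difference was -0.016. The nonclassical class I gene RT1-M3-1 had 0.39, 0.16, 0.16, 0.00 and 0.89 in A2B5+ replicates and -0.56, -0.87, -0.90 and -1.02 in O4+ replicates. It fell by 1.16 on the log2 scale, with an adjusted p of 0.00091, and its O4+ values were close to each other. RT1-S3, another class I gene, had 0.082, 0.48, 0.24, 0.33 and 0.22 in A2B5+ replicates and -1.16, -0.47, -2.38 and -1.41 in O4+ replicates, a difference of -1.62 ± 0.31 (SE, adjusted p = 0.0024). Its 4 probe sets were all called lower, between -1.77 and -1.36. By contrast the classical gene RT1-A had -0.22, 0.043, 0.00, 0.66 and 0.64 in A2B5+ replicates and -0.029, 0.64, -0.11 and -0.26 in O4+ replicates, a difference of -0.16 ± 0.24 (SE, adjusted p = 0.6). RT1-A3 differed by 0.12 ± 0.22 (SE, adjusted p = 0.66) and RT1-CE16 by -0.016 ± 0.15 (SE, adjusted p = 0.94), and the populations overlapped for all 3. The sign of RT1-A3 turned on centring. The smallest difference was that of RT1-T24-2, 0.013 ± 0.11 (SE, adjusted p = 0.93), whose sign turned under quantile normalization.

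RT1-DMa and RT1-DMb form the dimer that loads peptides onto class II molecules. Both were lower in O4+ cells, a direction set by the filter. RT1-DMa had 0.00, 0.75, 0.14, 0.69 and 0.85 in A2B5+ replicates and -1.01, -0.022, -2.17 and -1.84 in O4+ replicates, a difference of -1.75 ± 0.40 (SE, adjusted p = 0.0062). RT1-DMb had 0.00, 0.31, 0.39, 0.40 and 0.90 in A2B5+ replicates and -1.10, -0.15, -1.74 and -1.51 in O4+ replicates, a difference of -1.53 ± 0.31 (SE, adjusted p = 0.0031). The O4+ replicate nearest to A2B5+ was replicate 2 in both.

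The chains of the class II molecules themselves were high in 3 of 4 O4+ replicates. RT1-Ba, an alpha chain, had -0.26, -0.13, -0.65, -0.62 and 0.47 in A2B5+ replicates and 1.16, 1.07, -0.10 and 0.80 in O4+ replicates, a difference of 0.97 ± 0.30 (SE, adjusted p = 0.025). RT1-Bb, its beta chain, had -0.28, -0.095, -0.33, -0.59 and 0.20 in A2B5+ replicates and 1.18, 0.40, -0.11 and 0.69 in O4+ replicates, a difference of 0.76 ± 0.25 (SE, adjusted p = 0.032). O4+ replicate 3 was within the A2B5+ range for both. RT1-Da and RT1-Db1, the chains of the other class II molecule, were not called, at 1.26 ± 0.86 (SE, adjusted p = 0.25) and 1.002 ± 0.42 (SE, adjusted p = 0.072). Their O4+ values were 1.71, 1.47, -2.35 and 0.83 for RT1-Da and 1.20, 1.10, -0.79 and 1.30 for RT1-Db1, again low in replicate 3 alone. Without that replicate both were called, at 2.18 (adjusted p = 0.021) and 1.498 (adjusted p = 0.0013). The invariant chain Cd74, which escorts class II molecules and is no member by symbol, had -0.47, 0.0086, -1.45, -1.44 and 0.00 in A2B5+ replicates and 1.33, 0.66, -0.94 and 0.36 in O4+ replicates, a difference of 1.02 ± 0.48 (SE, adjusted p = 0.1). The calls of RT1-Ba and RT1-Bb were lost when arrays were centred. That of RT1-Ba was also lost without A2B5+ replicate 3 or 4 or O4+ replicate 1, 2 or 4 (0.83 to 0.95), and that of RT1-Bb without A2B5+ replicate 1, 2, 3 or 4 or O4+ replicate 1 or 4 (0.55 to 0.79).

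**Figure D4:**
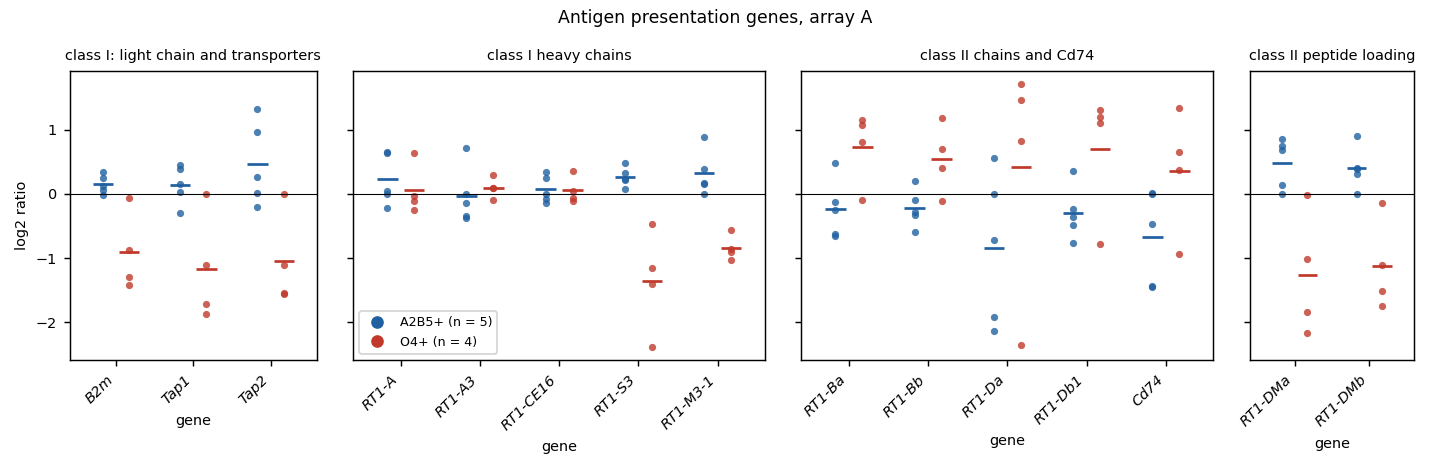
log2 ratios of class I and class II genes in each A2B5+ (blue, n = 5) and O4+ (red, n = 4) replicate on array A, with the mean as a line. B2m, Tap1, Tap2, RT1-S3, RT1-M3-1, RT1-DMa and RT1-DMb are lower in O4+, RT1-A, RT1-A3 and RT1-CE16 overlap, and the class II chains and Cd74 have 3 high O4+ values and 1 low one.

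Interferon-induced genes were lower or did not pass the test, with 7 of 14 lower and a median of -0.965. The other 7 lay between -0.91 and 0.26. Ifi44, which codes for a cytoplasmic antiviral protein, had 0.45, 0.041, 0.30, 0.00 and 0.61 in A2B5+ replicates and -1.38, -0.77, -1.58 and -1.003 in O4+ replicates. This was 2.76-fold lower, -1.46 ± 0.20 (SE, adjusted p = 0.000303). Ifitm3 restricts virus entry at membranes, and had 0.92, 0.54, 0.00, 0.13 and 0.33 in A2B5+ replicates and -0.44, -0.78, -1.78 and -0.51 in O4+ replicates, a difference of -1.26 ± 0.29 (SE, adjusted p = 0.0063). Ifitm10, a relative of it, had 1.88, 0.52, 1.16, 0.97 and 0.00 in A2B5+ replicates and -0.39, -0.31, -0.34 and -0.52 in O4+ replicates, a difference of -1.30 ± 0.32 (SE, adjusted p = 0.0084). The filter set the direction of these 3 genes, and A2B5+ replicate 1 was the highest of Ifitm3 and Ifitm10. Ifi27l2b had 0.21, 0.33, 0.34, -0.19 and 1.51 in A2B5+ replicates and -1.63, 0.00, -1.23 and -1.33 in O4+ replicates, a difference of -1.49 ± 0.39 (SE, adjusted p = 0.012), and O4+ replicate 2 lay within the A2B5+ range. The other 3 lower genes were Ifi35 (-1.76 ± 0.52 (SE, adjusted p = 0.02)), Ifi27 (-1.42 ± 0.38 (SE, adjusted p = 0.014)) and Ifit2 (-1.02 ± 0.29 (SE, adjusted p = 0.016)). The Ifit2 probe set at -0.47 was not called within array B (adjusted p = 0.3). That at -1.56 was called, but passed the filter through A2B5+ arrays alone. The call of Ifi35 was lost without O4+ replicate 3 or 4, at -1.56 and -1.43. Ifitm1 differed least, by 0.037 ± 0.37 (SE, adjusted p = 0.94), and its sign turned when arrays were centred. Mx1 and Mx2, dynamin-like antiviral GTPases, were not called and overlapped, at -0.55 ± 0.30 (SE, adjusted p = 0.16) and 0.11 ± 0.19 (SE, adjusted p = 0.64), and the sign of Mx2 turned on centring.

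The receptors for interferons were lower in 3 of 4 cases. Ifngr1, the ligand-binding chain for interferon-gamma, had 0.00, 0.90, 0.79, 1.17 and 0.71 in A2B5+ replicates and -0.64, -0.12, -1.15 and -1.02 in O4+ replicates. It differed by -1.45 ± 0.27 (SE, adjusted p = 0.0019), and the filter set this direction. Ifnar1, a chain of the receptor for type I interferons, had 0.12, 1.08, -0.023, 0.44 and 0.25 in A2B5+ replicates and -1.02, -0.78, -1.07 and -0.42 in O4+ replicates, a difference of -1.20 ± 0.23 (SE, adjusted p = 0.0026). On array B its probe sets differed by -0.83, -0.29 and -0.18, and only the first was called on that array type. That probe set passed the filter through A2B5+ arrays alone, as did the array A probe set of Ifnar1 at -1.51. The other tested on array A, at -0.88, was called within that type. Ifngr2, the second chain for interferon-gamma, had -0.26, 0.70, 0.00, 0.41 and 0.56 in A2B5+ replicates and -0.48, 0.25, -0.72 and -0.66 in O4+ replicates, a difference of -0.69 ± 0.25 (SE, adjusted p = 0.049). Its populations overlapped through O4+ replicate 2. The call was lost without A2B5+ replicate 2, 3, 4 or 5 or O4+ replicate 1, 3 or 4, at differences of -0.76 to -0.58, and with no filter, at -0.17 (adjusted p = 0.41). Ifnar2, the partner of Ifnar1, had 0.00, 0.42, 0.00, 0.15 and -0.21 in A2B5+ replicates and -1.02, 1.35, 0.24 and -0.66 in O4+ replicates. Its O4+ replicates spread more widely than the A2B5+ ones, and the difference of -0.094 ± 0.41 (SE, adjusted p = 0.87) turned sign without single replicates.

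Interferon regulatory factors were lower for 5 of 7, and for 7 of 7 once arrays were centred. Irf5, a factor of the Toll-like receptor response in myeloid cells, had -0.029, 1.40, 0.18, 0.93 and 1.48 in A2B5+ replicates and -0.86, -0.61, -1.04 and 0.00 in O4+ replicates, a difference of -1.42 ± 0.35 (SE, adjusted p = 0.009). Irf8, a factor needed for microglia and other myeloid cells, had -0.18, 0.80, 0.00, 0.48 and 0.78 in A2B5+ replicates and -0.46, 0.068, -0.80 and -1.23 in O4+ replicates, a difference of -0.98 ± 0.29 (SE, adjusted p = 0.021). Both populations overlapped by 1 O4+ replicate, the fourth for Irf5 and the second for Irf8. Irf9, the DNA-binding part of the complex that type I interferon activates, had -0.22, 0.49, 0.22, 0.21 and 0.50 in A2B5+ replicates and -0.20, 0.00, -0.63 and -0.90 in O4+ replicates on array A, a difference of -0.67 ± 0.22 (SE, adjusted p = 0.028). Its probe set on array B gave -1.28 ± 0.11 (SE), but passed the filter through A2B5+ arrays alone. Irf2, a repressor of interferon-induced genes, had -0.056, 1.07, 0.02, 0.084 and 0.96 in A2B5+ replicates and 0.00, -0.28, -0.77 and -0.81 in O4+ replicates, a difference of -0.88 ± 0.29 (SE, adjusted p = 0.032). This value is from array B. With no filter, when low array A probe sets stood for Irf2, it was called in the other direction, at 0.37 (adjusted p = 0.023), and the call was lost with quantile normalization (-0.77) and array weights (-0.60). Irf1, its activating counterpart, was also lower, at -1.04 ± 0.36 (SE, adjusted p = 0.038). Irf3 differed least, by -0.17 ± 0.14 (SE, adjusted p = 0.32), and was called with centred arrays, at -0.34 (adjusted p = 0.049). Calls were lost without A2B5+ replicate 2 or O4+ replicate 3 or 4 for Irf8 (-0.91 to -0.77) and without these or A2B5+ replicate 5 for Irf9 (-0.61 to -0.52) and Irf2 (-0.78 to -0.72). That of Irf1 was lost without A2B5+ replicate 2, 3, 4 or 5 or O4+ replicate 1, 3 or 4 (-1.09 to -0.81).

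Receptors of the LIF, CNTF and interleukin 6 family share the signalling chain Il6st, known as gp130. Il6st had -0.066, 0.70, 0.43, 0.85 and 0.70 in A2B5+ replicates and -0.82, -0.38, -1.17 and -0.76 in O4+ replicates. It was 2.47-fold lower in O4+ cells, -1.30 ± 0.22 (SE, adjusted p = 0.001), and all 4 of its tested probe sets were called lower (-1.48 to -1.10). Only the probe set at -1.48 had a ratio of at least 1 in an O4+ array, replicate 2, and its populations overlapped. The others passed the filter through A2B5+ arrays alone. Il6r, the chain that binds interleukin 6, had 0.67, 1.58, 0.10, 0.00 and 1.88 in A2B5+ replicates and -0.64, -0.65, -1.88 and -1.57 in O4+ replicates, a difference of -2.03 ± 0.44 (SE, adjusted p = 0.0047). The populations did not overlap for Il6st. Its value is a mean over probe sets mostly passed through A2B5+ arrays alone, so this is not read as support. The filter set the direction of Il6r. Il11ra1, which binds interleukin 11, had 0.00, 0.083, 0.42, 0.29 and -0.023 in A2B5+ replicates and -0.88, 0.44, -1.02 and -0.44 in O4+ replicates, a difference of -0.63 ± 0.27 (SE, adjusted p = 0.082). Without O4+ replicate 2 it was -0.93 (adjusted p = 0.0024). Cntfr, which binds CNTF, differed by 0.18 ± 0.15 (SE, adjusted p = 0.33), with values that overlapped, and was called without A2B5+ replicate 5, at 0.30 (adjusted p = 0.039).

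Interleukin receptors held both the lowest and one of the highest differences of these genes, with 6 of 14 lower and 3 higher. The 5 not called lay between -0.90 and 0.37, and include Il1rn and Il36rn, which code for receptor antagonists and entered by symbol. Il7r, the receptor chain for interleukin 7, had 0.00, 2.25, 1.13, 1.43 and 2.98 in A2B5+ replicates and -1.05, -1.34, -1.64 and -1.21 in O4+ replicates, which was 7.32-fold lower, -2.87 ± 0.50 (SE, adjusted p = 0.0014). A second probe set, on array B, gave -2.21 ± 0.30 (SE), but passed the filter through A2B5+ arrays alone. The A2B5+ values themselves spread widely, from 0.00 to 2.98, while the O4+ values were close to each other. Il2rg, the common gamma chain shared by the receptors of several interleukins, had 0.89, 0.50, 0.00, 0.076 and 0.20 in A2B5+ replicates and -2.72, -2.22, -2.70 and -2.06 in O4+ replicates. It was 6.77-fold lower, -2.76 ± 0.22 (SE, adjusted p = 1.20e-05), with all O4+ values at -2.06 or below. Il10ra and Il10rb, the chains of the interleukin 10 receptor, were both lower. Il10ra had 0.00, 1.39, 0.76, 0.97 and 1.27 in A2B5+ replicates and -0.94, -1.29, -1.16 and -0.22 in O4+ replicates, a difference of -1.78 ± 0.31 (SE, adjusted p = 0.0013). Il10rb had 0.00, 1.07, 0.41, 0.74 and 1.12 in A2B5+ replicates and -1.43, -1.02, -0.75 and -0.83 in O4+ replicates, a difference of -1.68 ± 0.25 (SE, adjusted p = 0.00051). The direction of Il7r, Il2rg, Il10ra and Il10rb was set by the filter. The value of Il10ra comes from array B, and its array A probe set, low on 8 of 9 arrays, was not tested. The remaining 2 lower genes were Il4r (-1.90 ± 0.52 (SE, adjusted p = 0.015)) and Il17ra (-0.84 ± 0.31 (SE, adjusted p = 0.045)), the latter lost without A2B5+ replicate 2, 4 or 5 or O4+ replicate 1, 3 or 4 (-0.86 to -0.66).

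Il1rap went the other way. It codes for the chain that joins the receptors of the interleukin 1 family to their signalling adaptor. Its log2 ratios were -0.41, -0.016, -0.31, -0.52 and 0.00 in A2B5+ replicates and 1.58, 1.47, 1.998 and 1.56 in O4+ replicates. It was 3.74-fold higher in O4+ cells, 1.90 ± 0.16 (SE, adjusted p = 1.81e-05), and the lowest O4+ value stood 1.47 above the highest A2B5+ value. The value comes from array B. The array A probe set had ratios between 0.475 and 0.616 in A2B5+ and between 0.722 and 0.786 in O4+, under 1 on every array, and was not tested. Il3ra, the chain that binds interleukin 3, had -0.63, -0.47, -0.43, -0.28 and 0.011 in A2B5+ replicates and 0.82, 0.00, 0.67 and 0.96 in O4+ replicates, a difference of 0.97 ± 0.21 (SE, adjusted p = 0.0045). O4+ replicate 2 was at the level of the highest A2B5+ replicate and the other 3 were above it. Il36rn, an antagonist of interleukin 36 receptors, differed least, by 0.12 ± 0.10 (SE, adjusted p = 0.35).

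Of the TNF receptor superfamily, 4 of 12 were lower and 3 higher, and the 5 not called lay between -1.15 and 0.44. Over all genes the shares were 17.8% lower and 28.8% higher. Once arrays were centred, 5 of the 12 were lower and 0 higher. Tnfrsf1a, the main receptor for TNF on most cells, had 0.16, 0.46, 0.00, 0.40 and 0.16 in A2B5+ replicates and -1.28, -0.74, -1.17 and -1.08 in O4+ replicates. It was lower by 2.47-fold, -1.30 ± 0.15 (SE, adjusted p = 0.000119), with narrow spread in both populations. Tnfrsf26 had 0.77, 1.43, 0.00, 0.23 and 0.90 in A2B5+ replicates and -1.53, -1.70, -1.66 and -0.58 in O4+ replicates, a difference of -2.03 ± 0.32 (SE, adjusted p = 0.000816). Tnfrsf11b codes for osteoprotegerin, a soluble decoy receptor, and had 1.63, 0.93, 1.69, 1.60 and 0.00 in A2B5+ replicates and -1.08, -0.89, -0.73 and -0.039 in O4+ replicates, a difference of -1.86 ± 0.36 (SE, adjusted p = 0.0026). Tnfrsf25, a death domain receptor, had 0.0043, 0.052, 0.027, 0.00 and 0.047 in A2B5+ replicates and -0.51, -0.55, -0.33 and -0.73 in O4+ replicates, a difference of -0.56 ± 0.11 (SE, adjusted p = 0.0031). The filter set the direction of these 4 genes, and O4+ replicate 4 and A2B5+ replicate 5 of Tnfrsf11b met within 0.05. Tnfrsf11a, the receptor RANK, differed least, by -0.024 ± 0.16 (SE, adjusted p = 0.91). Tnfrsf14, the receptor HVEM, had -0.61, 0.096, -0.47, -0.32 and -0.25 in A2B5+ replicates and 0.67, 0.33, 0.62 and -0.088 in O4+ replicates, a difference of 0.69 ± 0.19 (SE, adjusted p = 0.016) whose call was lost on centring.

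The differences of the 3 Janus kinases lay between -0.64 and -0.21, and 1 was called lower. Jak1, which serves the interferon and gp130 receptors, had 0.34, 0.73, 0.26, 0.59 and -0.30 in A2B5+ replicates and -0.43, -0.026, -0.14 and -0.65 in O4+ replicates. It was lower by -0.64 ± 0.22 (SE, adjusted p = 0.037), with overlap through A2B5+ replicate 5, and the call was lost without A2B5+ replicate 1, 2, 3 or 4 or O4+ replicate 1, 3 or 4 (-0.69 to -0.52). Jak2 had -0.035, 0.50, 0.22, 0.39 and -0.12 in A2B5+ replicates and -0.091, 0.55, 0.00 and -0.56 in O4+ replicates on array A, a difference of -0.21 ± 0.22 (SE, adjusted p = 0.45). The array B probe set of Jak2 was called lower within its array type, -0.84 ± 0.21 (SE, adjusted p = 0.020), so that the probe sets disagreed on the call. It passed the filter through A2B5+ arrays alone, which set its direction, and its call is not read as support. Jak3, the kinase that partners Il2rg, had -0.022, 0.19, 0.00, 0.14 and 0.69 in A2B5+ replicates and -0.071, 0.19, -0.17 and -0.013 in O4+ replicates, a difference of -0.22 ± 0.16 (SE, adjusted p = 0.3).

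Of 5 STAT factors, 1 was higher and the other 4 did not pass the test. Stat5b, which relays growth hormone and interleukin 2 signals, had -0.18, -0.085, -0.83, -0.31 and 0.00 in A2B5+ replicates and 0.11, 0.23, 0.15 and 0.40 in O4+ replicates, a difference of 0.51 ± 0.17 (SE, adjusted p = 0.037). The call was lost when arrays were centred, and without A2B5+ replicate 1 or 4 or any of the 4 O4+ replicates (0.45 to 0.54). Stat5a, its close copy, had -0.48, -0.22, -0.23, -0.13 and 0.39 in A2B5+ replicates and 0.00, 0.11, 0.30 and 0.02 in O4+ replicates, a difference of 0.24 ± 0.17 (SE, adjusted p = 0.27), and was called without A2B5+ replicate 5, at 0.38 (adjusted p = 0.038). Stat3, the main factor downstream of gp130, had 0.49, 0.42, 0.24, -0.32 and 0.065 in A2B5+ replicates and -0.84, 0.24, -0.01 and -0.51 in O4+ replicates, a difference of -0.46 ± 0.24 (SE, adjusted p = 0.15). Its probe sets gave -0.72 (called within array A) and -0.20. Stat2, which joins Irf9 in the interferon complex, differed by 0.096 ± 0.15 (SE, adjusted p = 0.61) and Stat6, the factor of interleukin 4, by 0.048 ± 0.16 (SE, adjusted p = 0.83). Their populations overlapped, and both signs turned on centring.

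SOCS inhibitors gave 1 lower and 1 higher gene of 4 tested. Socs7 had 0.29, 0.12, 0.43, 0.29 and 0.27 in A2B5+ replicates and -0.44, -0.50, -0.20 and -0.17 in O4+ replicates. It was lower by -0.61 ± 0.12 (SE, adjusted p = 0.0029), with every O4+ value below every A2B5+ value in the mean of its 2 probe sets. The probe set at -0.77 was called within array A but passed the filter through A2B5+ arrays alone. The other, at -0.44, was not called (adjusted p = 0.053), and its populations overlapped. Socs1, which blocks Janus kinases and is itself induced by interferons, had -0.19, -0.54, -0.31, -0.044 and 0.00 in A2B5+ replicates and 0.10, 0.55, 0.34 and 0.12 in O4+ replicates, a difference of 0.49 ± 0.15 (SE, adjusted p = 0.025). Its populations did not overlap, and its call was lost on centring and without A2B5+ replicate 2 or 3 or O4+ replicate 2 or 3 (0.40 to 0.47). Socs6 had -0.13, 0.33, 0.00, 0.28 and 0.55 in A2B5+ replicates and 0.087, -0.59, -0.36 and -0.0058 in O4+ replicates, a difference of -0.42 ± 0.19 (SE, adjusted p = 0.087), and was called lower once arrays were centred. Socs5 differed by 0.061 ± 0.32 (SE, adjusted p = 0.89) and had O4+ values of 0.00, -1.10, 0.14 and 0.13, of which replicate 2 was far from the others. Its sign turned under several alternatives, centring among them.

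Among NF-kappaB factors and inhibitors, 3 of 7 were lower and 1 higher. Nfkbib codes for IkappaB-beta, which retains NF-kappaB in the cytoplasm. It had -0.13, -0.19, -0.94, -0.94 and 0.00 in A2B5+ replicates and 1.77, 2.45, 2.67 and 1.49 in O4+ replicates, the largest rise of these genes, 5.8-fold higher, 2.54 ± 0.30 (SE, adjusted p = 0.00013). The lowest O4+ value stood 1.49 above the highest A2B5+ value. The transcripts of nuclear IkappaB proteins were lower instead. Nfkbid had 0.77, 0.58, 0.24, 0.00 and 1.22 in A2B5+ replicates and -1.30, -1.54, -1.13 and -1.05 in O4+ replicates, a difference of -1.82 ± 0.24 (SE, adjusted p = 0.000236), and is among the genes whose direction the filter set. Nfkbiz had 1.75, 1.19, -0.077, 0.03 and 1.26 in A2B5+ replicates and -0.33, -0.52, 0.00 and -0.61 in O4+ replicates, a difference of -1.20 ± 0.37 (SE, adjusted p = 0.025). Its A2B5+ replicates 3 and 4 lay near 0, close to the highest O4+ value. The call was lost without A2B5+ replicate 2 or O4+ replicate 2 or 4 (-1.15 to -1.11), and with array weights.

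Nfkb1, the precursor of the p50 subunit, had 0.00, 0.70, 0.045, 0.10 and 1.18 in A2B5+ replicates and -0.99, -0.47, -1.16 and -1.15 in O4+ replicates. It differed by -1.35 ± 0.27 (SE, adjusted p = 0.0029), a direction also set by the filter. Nfkb2, the precursor of p52, differed by -0.29 ± 0.23 (SE, adjusted p = 0.32), and Nfkbia, an inhibitor that NF-kappaB itself induces, by -0.45 ± 0.38 (SE, adjusted p = 0.36). Nfkbia was high in A2B5+ replicates 1, 2 and 5 and in O4+ replicate 2, at 0.89, 1.08, 0.78 and 1.21. Nfkbil1 differed by -0.038 ± 0.14 (SE, adjusted p = 0.84). Of the 21 tested immediate early genes, whose transcripts can rise during dissociation, 11 were lower in O4+ cells and 10 not called. Their mean on array A was 0.589, 0.343, -0.181, 0.0103 and 0.666 in A2B5+ replicates and between -0.661 and -0.159 in O4+. It was highest in A2B5+ replicates 1, 2 and 5, where Nfkbia and Nfkbiz were high too. The part of dissociation in these differences was not tested.

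Several small rises ran along a pattern of low probe sets. On array A, 2910 probe sets had a median below 1, and the median of their log2 ratios was -0.98, -0.974, -0.886, -0.718 and -0.692 in A2B5+ replicates and -0.601, -0.393, -0.563 and -0.537 in O4+ replicates, a difference of 0.327. The 4262 such probe sets of array B gave a difference of 0.067. Of the 11 genes called higher, 4 stayed close to this pattern once it was subtracted, with a residual SD over the 9 arrays of 0.0622 for Il2rb, 0.0849 for Tnfrsf8, 0.124 for Tnfrsf9 and 0.156 for Socs1. Over all low probe sets of array A the median residual SD was 0.0661, and over the other probe sets 0.395. It was 0.27 for Stat5b, 0.372 for Tnfrsf14, 0.382 and 0.826 for the probe sets of RT1-Ba, 0.505 and 0.645 for those of RT1-Bb, 0.469 for Il3ra, 0.991 for Il1rap on array B and 1.26 for Nfkbib. This SD is taken over both populations and so includes the difference between them. Within A2B5+ and within O4+ it was 0.219 and 0.231 for Il1rap and 0.0474 and 0.085 for Il2rb.

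Il2rb, a chain of the interleukin 2 receptor, had -0.39, -0.28, -0.18, -0.028 and 0.00 in A2B5+ replicates and 0.11, 0.33, 0.19 and 0.023 in O4+ replicates, a difference of 0.34 ± 0.13 (SE, adjusted p = 0.049). Tnfrsf8, the receptor CD30, had -0.26, -0.26, -0.39, -0.19 and 0.00 in A2B5+ replicates and 0.10, 0.22, 0.037 and 0.16 in O4+ replicates, a difference of 0.35 ± 0.11 (SE, adjusted p = 0.031). Tnfrsf9, the receptor CD137, had -0.26, -0.54, -0.39, 0.00 and -0.045 in A2B5+ replicates and 0.068, 0.31, 0.10 and 0.32 in O4+ replicates, a difference of 0.45 ± 0.14 (SE, adjusted p = 0.028). None of the 3 overlapped between populations, yet all their calls were lost on centring, which left only Nfkbib, Il1rap and Il3ra of the 11. Single replicates mattered as well: without A2B5+ replicate 1, 2, 3 or 4 or O4+ replicate 1, 2 or 4, 5 or 6 genes were called higher. The call of Il2rb was lost without any replicate but A2B5+ replicate 5 (0.28 to 0.38). That of Tnfrsf8 was lost without any but A2B5+ replicate 5 and O4+ replicate 3 (0.31 to 0.36), and that of Tnfrsf9 without A2B5+ replicate 1, 2 or 3 or O4+ replicate 2 or 4 (0.37 to 0.44).

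**Figure D5:**
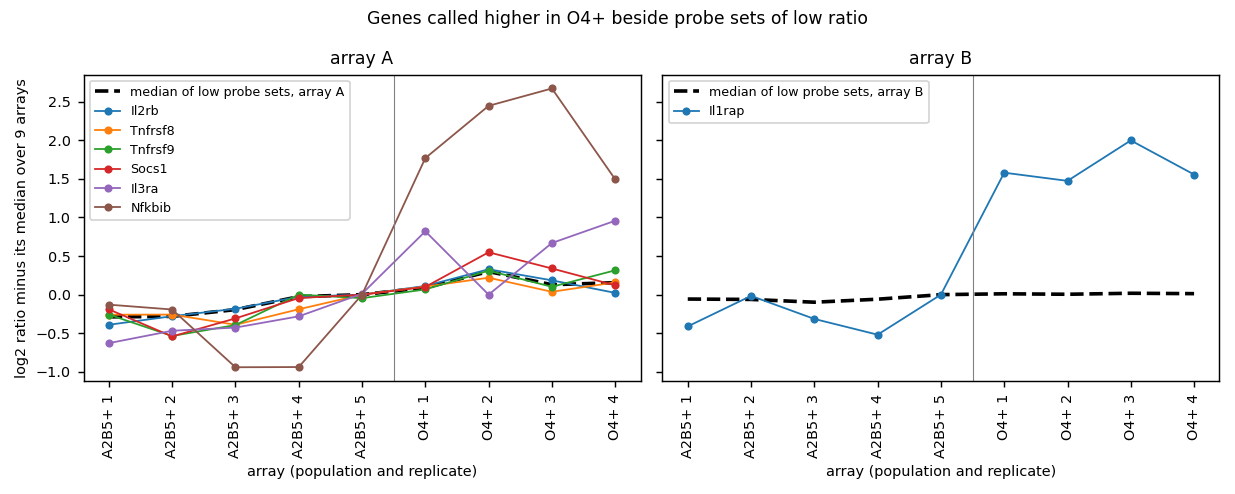
log2 ratio minus its median over 9 arrays for 7 genes called higher in O4+ (points), beside the median of the low probe sets of the same array type (dashed). Il2rb, Tnfrsf8, Tnfrsf9 and Socs1 run along the dashed line of array A, while Nfkbib and Il3ra on array A and Il1rap on array B leave it.

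Other genes of these pathways, from lists not defined by the symbol rule, are given for comparison. Of 13 tested class I presentation genes, which include B2m, Tap1 and Tap2, 5 were lower and 2 higher. The immunoproteasome subunit Psmb9 differed by -1.47 ± 0.45 (SE, adjusted p = 0.023), and Psme1, which activates the proteasome, by -0.98 ± 0.31 (SE, adjusted p = 0.026). The chaperones Calr (0.49 ± 0.15 (SE, adjusted p = 0.021)) and Pdia3 (0.43 ± 0.14 (SE, adjusted p = 0.034)) were higher, and both calls were lost on centring. Of 7 class II presentation genes, 1 was lower, the protease Ctss (-0.52 ± 0.18 (SE, adjusted p = 0.036)), and 6 were not called. Without O4+ replicate 2, 2 of them were lower. Among 28 interferon response genes outside the symbol rule, 10 were lower and 18 not called. The lower ones were led by Parp9 (-1.44 ± 0.22 (SE, adjusted p = 0.000594)), Parp14 (-1.59 ± 0.28 (SE, adjusted p = 0.0015)) and Cmpk2 (-1.11 ± 0.21 (SE, adjusted p = 0.002)).

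Cytokine ligands were lower for 7 of 20 and higher for 2. Kitlg (-1.34 ± 0.21 (SE, adjusted p = 0.000665)), Il33 (-1.03 ± 0.23 (SE, adjusted p = 0.0048)) and Il18 (-1.55 ± 0.40 (SE, adjusted p = 0.012)) had the lowest p among those lower. Csf1 (0.43 ± 0.12 (SE, adjusted p = 0.018)) and Tnfsf11 (0.36 ± 0.11 (SE, adjusted p = 0.025)) were higher, and centring left neither. Other cytokine receptors were higher for 6 of 14 and lower for 3. The higher ones were led by Crlf2 (1.26 ± 0.26 (SE, adjusted p = 0.0036)), a receptor chain for thymic stromal lymphopoietin, the neurotrophin receptor Ngfr (0.75 ± 0.21 (SE, adjusted p = 0.017)) and Relt (0.98 ± 0.29 (SE, adjusted p = 0.021)). The lower ones were Csf1r (-1.36 ± 0.24 (SE, adjusted p = 0.0015)), the receptor that microglia need to survive and also one of the microglial markers above, Csf3r (-1.49 ± 0.37 (SE, adjusted p = 0.009)) and Cd40 (-1.78 ± 0.50 (SE, adjusted p = 0.017)). Centring left 2 of these 14 higher and 4 lower, and 3 were higher without O4+ replicate 2. Csf1r and Csf3r had no O4+ ratio of at least 1, so the filter set their direction and their tests are not read as support.

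Regulators of the JAK-STAT pathway were lower for 8 of 21 and higher for 2. The 2 that rose were Pias4 (1.80 ± 0.20 (SE, adjusted p = 9.18e-05)), a SUMO ligase that restrains STAT factors, and Ptpn11 (0.73 ± 0.14 (SE, adjusted p = 0.0022)), the phosphatase SHP2. Pias1 (-1.27 ± 0.16 (SE, adjusted p = 0.00017)), a relative of Pias4, fell, as did the adaptors Sh2b3 (-1.47 ± 0.21 (SE, adjusted p = 0.000402)) and Sh2b2 (-1.06 ± 0.19 (SE, adjusted p = 0.0015)). Of 29 genes of NF-kappaB and TNF receptor signalling, 7 were lower and 6 higher, and centring left 1 higher and 8 lower. Ripk2 (-1.998 ± 0.25 (SE, adjusted p = 0.000212)), Traf5 (-2.48 ± 0.35 (SE, adjusted p = 0.000402)) and the kinase Ikbkb (-0.78 ± 0.18 (SE, adjusted p = 0.0064)) were lower, and Tnip1 (1.21 ± 0.26 (SE, adjusted p = 0.0042)), which binds the inhibitor A20, Chuk (0.84 ± 0.23 (SE, adjusted p = 0.014)) and Irak4 (0.49 ± 0.15 (SE, adjusted p = 0.024)) were higher. Counts of these lists and of the role groups stand beside the background of 17.8% lower and 28.8% higher given above. No list or group was tested as a set. Genes that passed the filter through A2B5+ arrays alone were not set apart in the counts of these lists.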

How the data were processed

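Values were the authors' deposited linear ratios per probe set, 9 arrays on each of 2 array types. Per the submitters' processing notes GCRMA was used (version not given), and the step from it to ratios is not stated. Every probe set has a median ratio of 1 or below, so that levels are not kept, and a small change of a probe set under 1 is uncertain in size. No header names a depth, and the number of arrays limits the precision.

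Probe sets entered the test where 4 or more of 9 ratios reached 1. The mean log2 ratio of a gene's tested probe sets with 1 symbol was used, array A before array B, with replicate numbers of both types set side by side. Whether equal numbers on both types are the same RNA is not stated. The 57 control probe sets of each type were left out. Of the members, 76 were measured on array A and 20 on array B. Groups were taken from the antigen in the titles, since the source label of array B samples names whole brain only. O4+ and A2B5+ were compared by two-sided limma fits (lmFit, then eBayes; limma 3.58.1, R 4.3.3), with Benjamini-Hochberg adjustment over 11982 genes. Tested on simulated data of 11982 genes, with 100 changed at each size, the fit recovered 68 at a log2 change of 1 and 91 at 2, with 7 false calls. All simulated arrays were drawn from the mean and SD of each gene's A2B5+ replicates, with no shift between arrays. The O4+ spread and the array shifts of the data were not simulated, so these rates may not hold for them.

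Alternatives were centring, quantile normalization, no filter or a stricter one, a replicate block, array weights, a variance trend, other ways to join probe sets and leaving out each replicate. Promoters were taken from RefSeq. Members, role groups and lists were chosen with earlier results of these data known. All members of the small role groups were named, and of the larger groups the 4 of lowest p in each direction among those called and the 1 of smallest difference. Of the other lists the 3 of lowest p in each direction were named. RT1-A, RT1-A2, RT1-A3, RT1-CE16, RT1-Da, RT1-Db1, RT1-T24-3, RT1-T24-4, Cd74, Mx1, Mx2, Ifi35, Ifi27, Ifit2, Irf1, Il4r and Il17ra fall outside that rule and were named after their values were seen.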

Additional observations from a re-analysis of the deposited data

Results flagged for a closer look

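Within a population, 8 of 126 groups of values, over 7 of the 63 genes examined, held a replicate set apart from the others by Dixon's test. About 1 in 20 such groups is picked by chance. On the log2 scale, Cntfr stood at 0.3208 in A2B5+ replicate 5 and at 0.1296 in O4+ replicate 2, above the other replicates. A2B5+ replicate 5 was also high for Tnfrsf11a, at 0.5588. O4+ replicate 2 was high for Stat2, at 0.4279, and low for Socs5, at -1.102. O4+ replicate 1 was high for Il36rn, at 0.1124. O4+ replicate 4 was high for Nfkbil1, at 0.3127, and for Tnfrsf26, at -0.5756. Of these 7 genes, Tnfrsf26 alone passed the test between populations, and it was called under all 17 alternatives run for it. The filter set its direction.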

How the results depend on the processing

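Of the 63 genes to which the 17 alternatives were applied, 44 were called, and 28 of these under every alternative. The 28 include all of the 19 genes whose direction the filter set, except Il10ra, and these are not read as support. The others were B2m, Ifi27l2b, Ifnar1, Il1rap, Il3ra, Il6st, Irf5, Nfkbib, Socs7 and Tap2. Of these, B2m, Ifnar1, Il6st and Socs7 are means that include probe sets passed through A2B5+ arrays alone. The count of members called lower (39) stayed between 35 and 45 under the other settings and between 30 and 44 when single replicates were left out. The count called higher (11) was 3 with centred arrays, 3 with quantile normalization and 28 with no filter, and between 5 and 15 without single replicates. Over all genes, 3445 were higher, 2241 with centred arrays and 2036 with quantile normalization. The labels do not say whether replicate numbers pair the populations, and not every same-numbered pair deviated together: same-numbered deviations correlated by 0.02 to 0.31 on array A and -0.20 to 0.24 on array B. With the replicate block, 11 members were higher and 41 lower, and Il2rb, Socs1 and Irf9 lost their calls.

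Among these 63 genes, signs turned for 10. Under centring and quantile normalization these were Ifitm1 (-0.1327 and -0.09071), Stat2 (-0.07428 and -0.138), Stat6 (-0.1216 and -0.1727) and Socs5 (-0.1091 and -0.001092), and RT1-T24-2 turned under quantile normalization alone (-0.006901). Socs5 also turned with the replicate block (-0.06904) and with both array types averaged (-0.1132). With no filter, Il10ra was at 0.5763 and Irf2 at 0.372 (adjusted p = 0.023, a call in the other direction), since low array A probe sets then stood for them. With no filter Ifngr2 (-0.17) and Tap1 (-0.52) lost their calls. Tnfrsf11a turned with the replicate block (0.105) and with array weights (0.06062), as did Nfkbil1 with array weights (0.0009343). Without single replicates, differences ran from -0.295 to 0.3026 for Ifitm1, -0.5519 to 0.2382 for Ifnar2, -0.137 to 0.02008 for Nfkbil1, -0.01499 to 0.05653 for RT1-T24-2, -0.06904 to 0.3589 for Socs5, -0.01037 to 0.1657 for Stat2, -0.1026 to 0.1665 for Stat6 and -0.07874 to 0.105 for Tnfrsf11a. The cause of these turns was not tested. Only differences well above the replicate spread can be told at 5 and 4 arrays, and values of probe sets near the divisor are limited by signal over background, which the files do not give.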
